A study of Mus musculus with 2 samples.

Results

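The dense clusters of distal accessible sites described here are runs of open sites that lie away from the ends of protein-coding genes but close to each other, in mouse Stag3 KO GSCs, cells of the male germline. A site was a region with an ATAC-seq peak in both libraries, overlapping by at least 1 bp, and it was distal when its replicate 1 summit lay more than 1000 bp from every end of a RefSeq protein-coding gene. Distal sites whose summits lay within 5000 bp of the next were chained, and chains of 6 or more sites were kept. The chains were thus chosen by measured values, the presence and summit positions of peaks in both libraries. This gave 35 chains with 236 sites, out of 66315 distal sites and 83732 shared sites in all, so that 0.356% of the distal sites stood in such a chain.

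ATAC-seq uses the Tn5 transposase to insert adapters into open chromatin. The series held 1 group, Stag3 KO GSCs, with 2 libraries numbered replicate 1 and replicate 2. The cell line is given as Acrosin-EGFP; beta-Actin-EGFP (AAG), for its reporters, and 50000 sorted AAG-positive viable cells went into each transposition. How Stag3 was disrupted, whether the line was 1 clone and whether the libraries came from separate cultures are not given in the labels. Wild-type cells were not analysed here, so no value below is a difference between genotypes.

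As background, accessible sites away from gene ends include enhancers, insulators and the starts of noncoding transcripts, and dense runs of them are often seen around genes that set cell identity. Transfer RNA genes are another kind of open site: they are short, are read by RNA polymerase III from promoter elements inside the gene, and in mammals lie in clusters, some of them among the histone genes. Cohesin, of which the product of Stag3 is a subunit, is the ring complex that folds chromosomes into loops.

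Values are given as tags, the height of the pileup at a summit, recovered from the deposited fold and p-value of each peak, and as fold, the enrichment over the local background that the authors' peak caller gave. The libraries held 107331 and 98986 peaks, with a median summit of 40 tags in replicate 1 and 41 in replicate 2. Each of the 20 marker genes of undifferentiated spermatogonia had a shared site within 1000 bp of a gene end, as did 65.8% of all protein-coding genes. So did 8 of 8 markers of differentiating spermatogonia, 5 of 8 of Sertoli cells, 2 of 6 of Leydig cells, 4 of 7 of fibroblasts and 3 of 7 of endothelial and blood cells. The lower-coordinate end of Stag3 itself had a site of 19 and 20 tags, which does not check the knockout.

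A few chain sites overlapped a window around a RefSeq transcript start. Sequences are shown because such windows tie a chain to a named transcription unit. Of the 236 sites, 8 (3.39%, 95% Wilson interval 1.73 to 6.55) overlapped a start window, the 250 bases before to 50 bases after a start, close to the 4.34% of all distal sites. They lay in 5 chains. The windows of C130071C03Rik, a lncRNA whose model holds the microRNA gene Mir9-2, of a downstream start of the lncRNA Gm46560, of the lncRNA Gm8493, which held the chain site with most tags, and of a start inside Grid2ip, which encodes a partner of a glutamate receptor, are given below, 5′ to 3′ on the strand of the gene, from RefSeq on GRCm38.p6. Capitals mark the bases that the peak of either library covered, and at all 8 sites both peaks overlapped the window.
C130071C03Rik, chr13:83721131-83721430, plus strand: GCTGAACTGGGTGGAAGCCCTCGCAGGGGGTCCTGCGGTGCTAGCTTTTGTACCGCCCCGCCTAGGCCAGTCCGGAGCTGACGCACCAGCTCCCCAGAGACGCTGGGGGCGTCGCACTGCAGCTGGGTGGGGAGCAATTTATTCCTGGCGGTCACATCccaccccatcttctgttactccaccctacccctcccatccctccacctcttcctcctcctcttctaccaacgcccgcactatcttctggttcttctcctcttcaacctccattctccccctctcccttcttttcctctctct
Gm46560, chr16:31509074-31509373, plus strand: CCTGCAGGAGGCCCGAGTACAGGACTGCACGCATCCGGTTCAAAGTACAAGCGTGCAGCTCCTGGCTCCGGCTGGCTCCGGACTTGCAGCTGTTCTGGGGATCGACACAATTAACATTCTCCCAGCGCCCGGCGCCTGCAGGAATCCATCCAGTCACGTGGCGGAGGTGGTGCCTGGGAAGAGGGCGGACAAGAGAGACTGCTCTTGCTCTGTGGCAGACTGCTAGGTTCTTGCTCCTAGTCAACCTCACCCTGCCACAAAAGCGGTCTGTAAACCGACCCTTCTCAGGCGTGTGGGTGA
Gm8493, chr5:109553498-109553797, minus strand: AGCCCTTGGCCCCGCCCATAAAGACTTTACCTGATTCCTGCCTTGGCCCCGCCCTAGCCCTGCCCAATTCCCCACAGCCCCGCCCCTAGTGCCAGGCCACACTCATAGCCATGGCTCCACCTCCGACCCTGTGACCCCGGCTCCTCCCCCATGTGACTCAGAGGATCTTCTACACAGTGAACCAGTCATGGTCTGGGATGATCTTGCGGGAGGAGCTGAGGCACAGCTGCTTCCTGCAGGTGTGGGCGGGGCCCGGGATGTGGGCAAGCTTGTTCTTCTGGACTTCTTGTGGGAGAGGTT
Grid2ip, chr5:143369824-143370123, plus strand: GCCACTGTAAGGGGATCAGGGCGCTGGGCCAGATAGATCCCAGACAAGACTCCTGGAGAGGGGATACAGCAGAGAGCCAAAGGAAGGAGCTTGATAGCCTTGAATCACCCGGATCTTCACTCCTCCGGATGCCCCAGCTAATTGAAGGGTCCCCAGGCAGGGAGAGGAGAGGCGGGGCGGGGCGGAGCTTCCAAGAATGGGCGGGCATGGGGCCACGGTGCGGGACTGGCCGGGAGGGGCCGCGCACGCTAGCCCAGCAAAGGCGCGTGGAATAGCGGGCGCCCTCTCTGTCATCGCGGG

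The site at the C130071C03Rik window held 114 tags in replicate 1 and 103 in replicate 2. The Gm46560 site held 78 and 171, the Gm8493 site 533 and 661, and the Grid2ip site 53 and 94. These are tags at the summit, which lay inside the window at the Gm46560 site. At the C130071C03Rik, Gm8493 and Grid2ip sites the summit lay outside the window in both libraries. The C130071C03Rik site stopped before the start itself. The Gm8493 site was the highest of the 236 in both libraries. Across the 8 windows the GC content was 54 to 65%, against a median of 52.7% over all 32851 start windows, and the number of CG pairs was 8 to 19, against a median of 7. The motif GGGCGG, searched on both strands, stood in 6 of the 8 windows and in 35.7% of all start windows.

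The last site of the same chain as C130071C03Rik, at 83738315 to 83738841 on chromosome 13, bordered on Mir9-2. In replicate 1 its peak ended within miR-9-5p, 17 bp before miR-9-3p, and in replicate 2 its peak ended at 83738540, before the microRNA. The mature products are shown with the seed, bases 2 to 8, in capitals.
mmu-miR-9-5p, chr13:83738821-83738843, plus strand: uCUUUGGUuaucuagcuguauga
mmu-miR-9-3p, chr13:83738858-83738879, plus strand: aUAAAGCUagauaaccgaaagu

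The seeds differ, and miR-9 is best known as a microRNA of the developing nervous system. This last site was the weakest of its chain, with 22 tags in replicate 1 and 15 in replicate 2.

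The 35 chains were short and spread over 18 chromosomes. There were 21 chains of 6 sites, 7 of 7, 5 of 8, 1 of 9 and 1 of 12. From first to last summit they spanned 5524 to 26104 bp, with a median of 12237 bp, at 0.346 to 1.09 sites per kb. Chromosome 13 held 5 chains, chromosomes 4 and 5 held 4 each, and X held 1. These counts were not set against the distal sites of each chromosome. Of the 35, 14 overlapped a protein-coding gene model (40%, 95% Wilson interval 25.6 to 56.4), 9 of them lying wholly inside 1 model, and 21 lay between models. By site, 75 of 236 (31.8%, interval 26.2 to 38.0) had their summit inside a protein-coding gene, against 46.8% of all distal sites. Sites of 1 chain are neighbours, so these intervals, which cover counting error only, are too narrow.

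**Figure D1:**
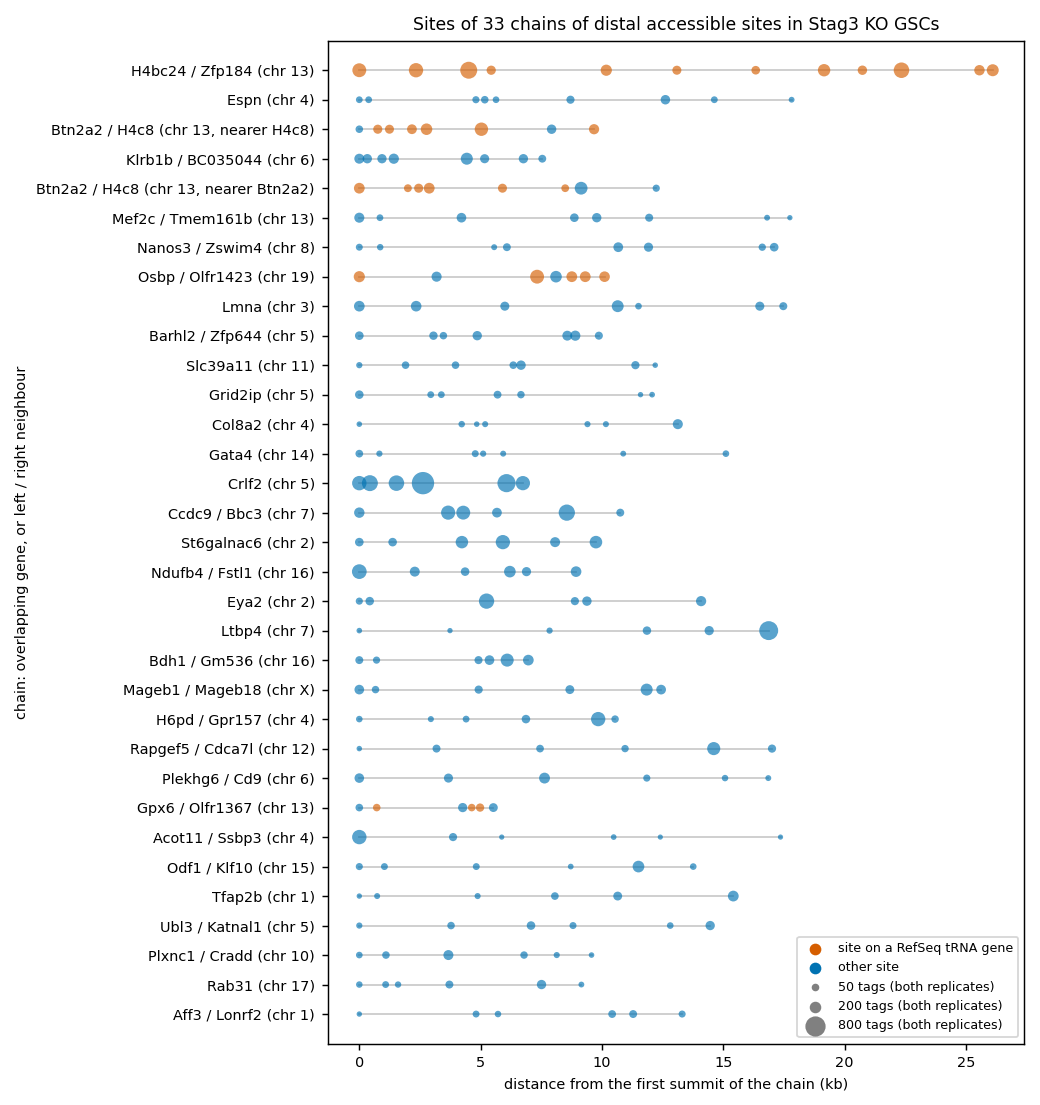
Position of each site, in kb from the first summit of its chain, for 33 of the 35 chains in order of their number of sites; circle area grows with the tags of both replicates together, and orange marks sites on a RefSeq tRNA gene. The 12 sites of the H4bc24 / Zfp184 chain all lie on tRNA genes, and the largest circle is in the Crlf2 chain.

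The chain with most sites was a row of tRNA genes. It lay on chromosome 13 at 21914580 to 21941040, between H4bc24, a histone gene, and Zfp184, which encodes a zinc finger protein, 4144 bp from the end of Zfp184. Each of its 12 sites overlapped a different one of 12 tRNA genes. The strongest was at n-TSaga5, a serine tRNA gene with anticodon AGA, with 317 tags in replicate 1 and 356 in replicate 2, and the next was at the serine gene n-TSaga1, with 278 and 282. The leucine gene n-TLcaa2 had 226 and 216 tags and the arginine gene n-TRtct3 had 248 and 224. At the lower end n-TSaga6, another serine gene with the same anticodon, had 81 and 88, n-TQctg10, a glutamine gene, had 89 and 88, and the methionine gene n-TMcat10 had 94 and 57. The 4 serine genes with anticodon AGA thus covered the whole range of the chain in replicate 1, 81 to 317 tags, and most of it in replicate 2, 88 to 356 tags against 57 to 356. The highest site was the same in both libraries and the lowest was not.

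In all, 5 chains with 41 sites held tRNA genes, 4 of them on chromosome 13, and 32 of the 41 sites lay on one. Of all 236 chain sites that was 13.6% (95% Wilson interval 9.77 to 18.5), against 0.28% of all distal sites and 0.233% of the distal sites outside these chains. The share was 0.0472% among single distal sites, 0.279% in pairs, 0.600% in chains of 3, 1.61% in chains of 4 and 4.54% in chains of 5. tRNA genes themselves lie in clusters, and the rule for chains is a rule on spacing, so these shares are descriptions. In replicate 1 the summit lay within 200 bp of the tRNA gene at 31 of the 32 sites, and in replicate 2 at 30. The median distance was 0 bp in both, which stands for a summit inside the gene. Many other summits fell outside it, by up to 303 bp in replicate 1 and 287 bp in replicate 2. At 31 of the 32 sites the peaks of both libraries overlapped the gene, and at 1 only that of replicate 2 did.

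Another pair of chains flanked a gap of 6561 bp on chromosome 13, between Btn2a2, which encodes a butyrophilin, and the histone gene H4c8. The chain nearer Btn2a2, at 23497771 to 23510460, had 8 sites, 6 of them on tRNA genes. Its highest site, at 23507019 to 23507429, was not on a tRNA gene and had 160 tags in replicate 1 and 210 in replicate 2. Among its tRNA sites the tryptophan gene n-TWcca3, with 133 and 119, was highest in replicate 1, and the serine gene n-TSaga7, with 123 and 131, in replicate 2. The chain nearer H4c8, at 23516853 to 23526722, also had 8 sites, 6 of them on tRNA genes, led by the serine gene n-TSgct4 with 204 and 205 tags and the glutamine gene n-TQttg5 with 158 and 137. The glycine gene n-TGgcc6 in its span was not overlapped by a shared site. Btn2a2 and H4c8 were the 2 genes that neighboured more than 1 chain.

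The remaining tRNA chains were smaller. On chromosome 19 at 12002130 to 12012605, between Osbp, an oxysterol-binding protein gene, and the olfactory receptor gene Olfr1423, 7 sites stood among 8 tRNA genes. The strongest, at the lysine gene n-TKctt30, had 223 tags in replicate 1 and 218 in replicate 2, and no shared site overlapped n-TKctt29 or n-TFgaa2. A single site of 113 and 141 tags covered both n-TRtct1 and n-TVtac1. On chromosome 13 at 21321978 to 21327815, between Gpx6, a glutathione peroxidase gene, and Olfr1367, 6 sites had 42 to 97 tags in replicate 1 and 48 to 81 in replicate 2. It was the shortest chain, with 5524 bp, and had 3 sites on its 2 tRNA genes, 2 of which shared 1 replicate 2 peak.

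**Figure D2:**
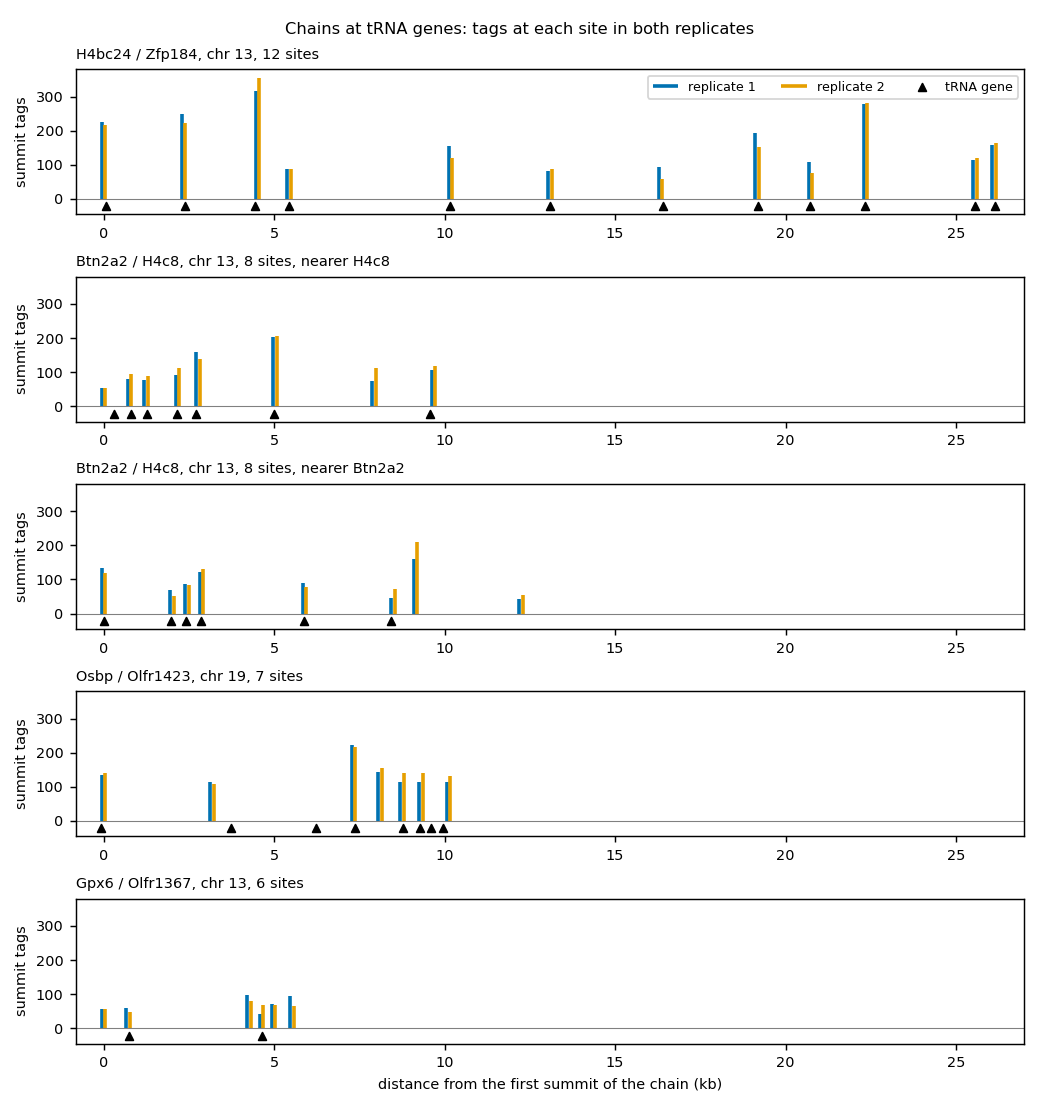
Tags at the summit of each site in replicate 1 (blue) and replicate 2 (orange) of the 5 chains that hold tRNA genes, by distance in kb from the first summit; triangles mark tRNA genes. The 12 tRNA genes of the H4bc24 / Zfp184 chain each lie under a site, and the tallest bars there, 317 and 356 tags, stand at n-TSaga5.

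Of the 35 tRNA genes in chain spans, 32 were overlapped by a shared site. Of the 373 elsewhere 181 were (48.5%), against 52.2% of all 408. Chain spans exist only where shared sites stand close together, so the rule itself favoured overlap there and the contrast is a description. The 35 included 8 serine, 5 arginine, 4 glutamine and 4 methionine genes. The share of each amino acid among all 408 is not given here, so these counts do not show an excess. Chain sites on tRNA genes had a median of 113 tags in replicate 1 and 119.5 in replicate 2, against 100.5 and 110 at the 154 other distal sites on tRNA genes. Both kinds were well above the medians of 47 and 44 tags of the distal sites outside chains. Copies of a tRNA gene are nearly alike, and how reads that match several copies were treated is not given in the sources used here, so the tags of single tRNA genes are uncertain.

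The other 30 chains, with 195 sites, lay away from tRNA genes, and several stood in or beside genes for developmental regulators. Gata4, a zinc finger transcription factor gene of heart, endoderm and Sertoli cells, held 7 sites inside its model on chromosome 14 at 63240505 to 63256428. Its sites were weak, with 23 to 62 tags (median 38) in replicate 1 and 25 to 52 tags (median 33) in replicate 2. Gata4 was also 1 of the 3 Sertoli markers with no shared site at a gene end, so the sites in its body were seen without one at its ends. By median tags over both libraries it was among the 5 lowest chains, with, among others, those at Col8a2, between Aff3 and Lonrf2, and between Acot11 and Ssbp3.

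Eya2, which encodes a phosphatase and transcription cofactor, held 6 sites at 165707893 to 165722285 on chromosome 2, each with more tags in replicate 2. Its strongest site had 216 tags in replicate 1 and 326 in replicate 2. Tfap2b, an AP-2 transcription factor gene, was overlapped by a chain of 6 at 19225968 to 19241743 on chromosome 1, whose strongest site had 142 tags in replicate 1 and 112 in replicate 2. The strongest site held 41.0% of the tags of the Eya2 chain and 37.2% at Tfap2b, so 1 site stood well above the others in both.

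The chain that ends beside Mir9-2 had 8 sites at 83720818 to 83738841 on chromosome 13, between Mef2c, a MADS-box transcription factor gene, and Tmem161b. The nearest protein-coding gene end was 53896 bp away. The sites held 22 to 114 tags in replicate 1 and 15 to 103 in replicate 2, and 6 of 8 were lower in replicate 2. Tags were highest at the first site, which overlapped the start window of C130071C03Rik, and lowest at the last site. Beside Barhl2, a homeobox gene of the nervous system, 7 sites lay at 106460678 to 106470923 on chromosome 5. They rested on 6 replicate 2 peaks and had 54 to 93 tags in replicate 1 and 52 to 130 in replicate 2. Slc39a11, a zinc transporter gene, held 7 sites at 113605756 to 113618176 on chromosome 11. They had 16 to 99 tags in replicate 1 and 26 to 87 in replicate 2. The next protein-coding gene on the upper side was Sstr2, 1257 bp from the last summit. The next on the lower side, 818118 bp away, was Sox9, the transcription factor gene of Sertoli and cartilage cells.

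Among genes of germ cells, Nanos3 neighboured a chain of 8 on chromosome 8 at 84186504 to 84203950. Nanos3 encodes an RNA-binding protein that germ cells need to survive, and its end lay 10104 bp from the first summit, with Zswim4 7189 bp from the last. The sites held 24 to 91 tags (median 47) in replicate 1 and 31 to 120 (median 67.5) in replicate 2. The microRNA genes Mir181c and Mir181d lay beyond the lower end of the chain, and Mir23a, Mir27a, Mir24-2 and Mir3074-2 beyond the upper end, all within 10000 bp and none under a chain site. The last 2 sites shared 1 replicate 2 peak of 74 tags. The single chain on X lay at 92020504 to 92033276 between Mageb1 and Mageb18, members of a melanoma antigen family known from testis and tumours, with 51 to 140 tags in replicate 1 and 54 to 181 in replicate 2. Between Plekhg6 and Cd9, a tetraspanin gene used as a surface marker of male germline stem cells, 6 sites held 32 to 120 tags in replicate 1 and 20 to 138 in replicate 2, the nearest at 24497 bp from Cd9.

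**Figure D3:**
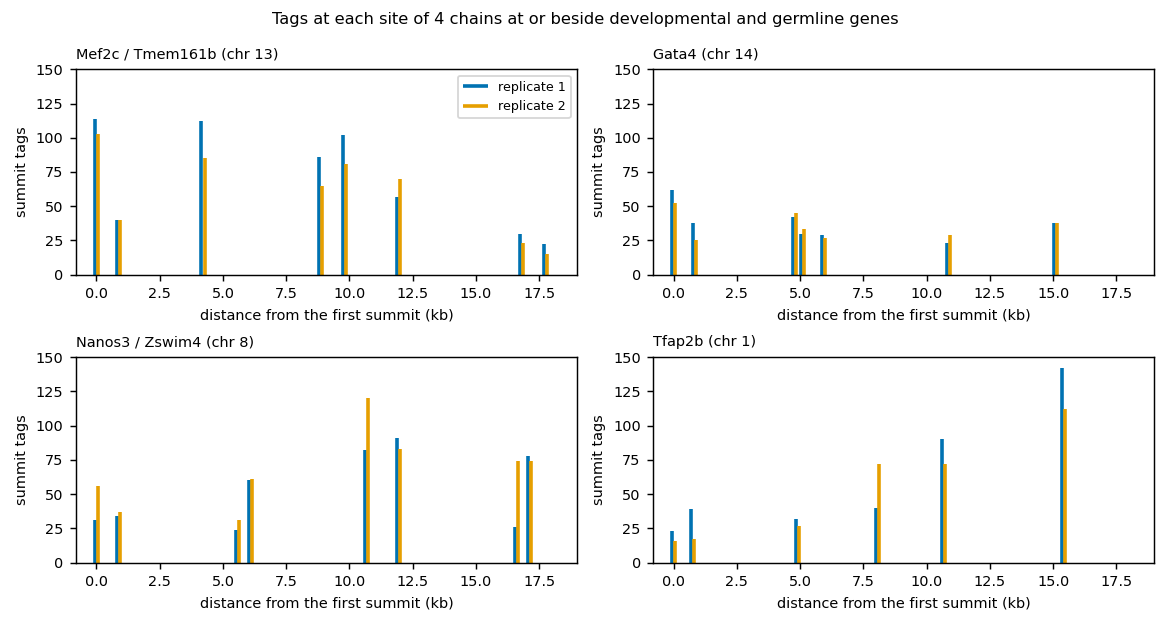
Tags at the summit of each site in replicate 1 (blue) and replicate 2 (orange), by distance in kb from the first summit, for the chains beside Mir9-2 (Mef2c / Tmem161b), beside Nanos3 and at Gata4 and Tfap2b. The Gata4 sites stay at or below 62 tags, while the last Tfap2b site reaches 142 and 112.

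A chain of 9 sites, which rested on 7 replicate 2 peaks, lay inside Espn, which encodes the actin-bundling protein espin of hair cell stereocilia and Sertoli cell junctions. It lay on chromosome 4 at 152125831 to 152143965 and held 28 to 84 tags in replicate 1 and 24 to 105 in replicate 2. A chain of 7 sites at 88467142 to 88485132 on chromosome 3 reached into Lmna, the gene of the nuclear lamins A and C, with 2 summits inside the gene model, and had 36 to 158 tags in replicate 1 and 40 to 171 in replicate 2. It had the highest median fold in both libraries, 14.0 and 10.8, but 1 of its gaps was 4999 bp, just inside the limit. Grid2ip held 7 sites, which rested on 6 replicate 2 peaks, with 18 to 60 tags in replicate 1 and 21 to 94 in replicate 2. On replicate 2 peaks alone the Grid2ip chain was not found again. Col8a2, a collagen gene, held 7 sites with medians of 32 and 28 tags. The sialyltransferase gene St6galnac6 held 6 sites with medians of 139.5 and 137, and Rab31, a gene for a GTPase of vesicle traffic, held 6 with medians of 33.5 and 48.5.

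The highest tags were not at the named regulators. The chain that overlaps Crlf2, a cytokine receptor gene, on chromosome 5 at 109550633 to 109558199, had 223 to 533 tags in replicate 1 and 240 to 661 in replicate 2. Its local background was also the highest, with a median of 88.3 tags in replicate 1 and 103 in replicate 2, so that its median folds were the lowest of the 35 chains, 3.44 and 3.26. It was the 1 chain with a gene-end site inside its span. The chain between Ccdc9 and Bbc3, which encodes the p53-induced death factor PUMA, followed with medians of 180.5 and 155.5 tags at 16291197 to 16302303 on chromosome 7. Between Klrb1b, a natural killer cell receptor gene, and BC035044 on chromosome 6, 8 sites packed into 7541 bp had medians of 93 and 94 tags over a background of 24.7 and 25.7.

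In other chains 1 strong site stood among weak ones. At Ltbp4, which encodes a binding protein of latent TGF-beta, 1 of 6 sites held 436 tags in replicate 1 and 411 in replicate 2, 64.5% of the tags of the chain. Between Acot11, a thioesterase gene, and Ssbp3, a cofactor of LIM-domain transcription factors, 1 of 6 held 215 and 263 tags (62.9%), with the highest folds of any chain site, 27.8 and 27.5. Between H6pd and Gpr157, 1 of 6 held 172 and 299 (50.3%). Over all chains the strongest site held 16.8 to 64.5% of the tags, with a median of 27.2%.

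The rest of the chains had 6 sites each and lay between protein-coding genes. Medians were 97.5 tags in replicate 1 and 131.5 in replicate 2 between Ndufb4 and Fstl1, 64 and 87.5 between Bdh1 and Gm536, 60.5 and 57.5 between Rapgef5 and Cdca7l, and 50 and 39.5 between Plxnc1 and Cradd. They were 46 and 55 between Ubl3 and Katnal1, 44 and 34.5 between Aff3 and Lonrf2, and 34 and 48.5 between Odf1, a sperm tail gene, and Klf10, a zinc finger gene. The Ubl3 / Katnal1 chain was the farthest from a protein-coding gene end, at 130524 bp, followed by the chain beside Mir9-2. Next came those at Eya2 (49597 bp), near Bdh1 (43318 bp) and in Rab31 (40882 bp).

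Counted together, 82 protein-coding genes overlapped a chain or were nearest to one on either side (0.375% of 21887). Of 329 genes in 13 lists for germ, somatic, signalling and chromatin functions, 4 did (1.22%). They included Nanos3 among 33 genes of undifferentiated spermatogonia and 3 of 52 somatic lineage regulators, Gata4 and Sox9 among them. Sox9 and Gata4 came again among 22 genes of Sertoli, Leydig and feeder cells. Sox9 counted only as the next gene on the lower side of its chain, 818118 bp away. None of the lists of differentiating spermatogonia, meiotic prophase, cohesin and CTCF, pluripotency, growth factor signalling, Wnt, TGF-beta and Notch signalling, endothelial and blood cells, AP-1, chromatin machinery or housekeeping had a gene at a chain. Of the 82 neighbours, 62 (75.6%) had a shared site at a gene end, against the 65.8% of all genes given above.

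Chain sites differed from the other distal sites in tags and, more, in background. The 236 chain sites had a median of 62.5 tags in replicate 1 and 71.5 in replicate 2, against 47 and 44 at the 66079 other distal sites, a ratio of 1.48 ± 0.209 (SD, n = 2 libraries). The median local background was 9.42 and 9.88 tags, against 2.96 and 2.84, a ratio of 3.33 ± 0.210. The median fold was therefore lower in the chains, 5.69 and 5.99, against 10.7 and 10.1, a ratio of 0.563 ± 0.0421. Of the chain sites, 23.3% in replicate 1 and 22.0% in replicate 2 had a fold above the median of their library, against 61.2% and 57.8% of other distal sites. Chain sites were thus below other distal sites by fold and above them by tags.

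The ranges of tags overlapped widely. From the lower to the upper quartile, chain sites ran from 38 to 102.5 tags in replicate 1 and from 43.75 to 113 in replicate 2, against 27 to 88 and 25 to 86 at other distal sites. For the background the middle ranges did not meet, with 5.67 to 15.2 and 5.85 to 16.6 tags at chain sites, against 2.19 to 5.44 and 2.13 to 5.56. No p-value is given, because sites of 1 chain are not independent and there were 2 libraries. Without the tRNA chains the medians were 57 and 64 tags over a background of 7.60 and 7.72. The lower quartiles of the background were then 5.27 and 5.46 tags, so its middle ranges did meet those of other distal sites. The background was higher in longer chains, though not at each step. It rose from 2.20 and 2.13 tags at single distal sites through 3.92 and 3.86 in pairs and 5.48 and 5.60 in chains of 3. It was 7.04 and 7.54 in chains of 4 and lower, 6.68 and 7.12, in chains of 5. Tags changed less, from 46 and 40 at single sites to 54 and 58 in chains of 4 and 52 and 55 in chains of 5. No peak had a background below 2.19 tags in replicate 1 or 2.13 in replicate 2. The single-site medians and the lower quartiles of other distal sites thus lay at or next to this floor. How the caller set its background is not given in the sources used here, and the part of neighbouring sites in it was not tested.

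**Figure D4:**
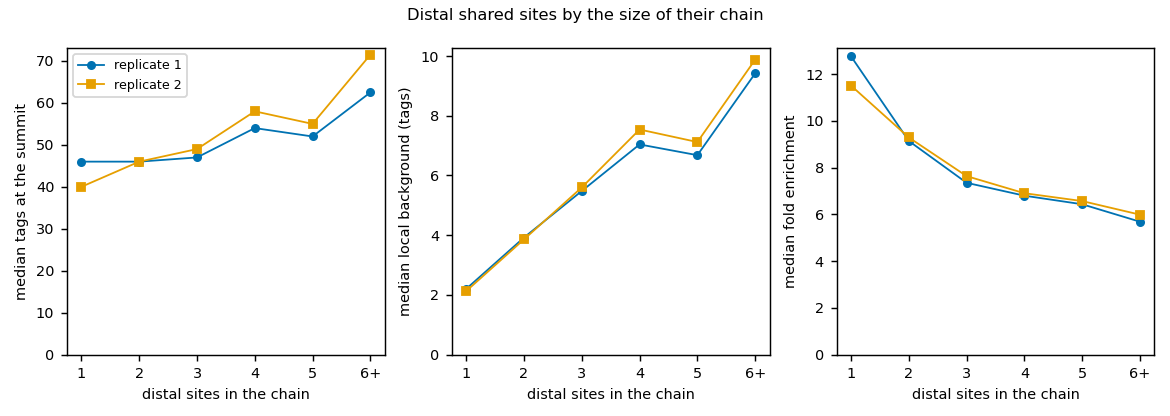
Median tags at the summit, median local background in tags and median fold enrichment of distal shared sites in replicate 1 (blue circles) and replicate 2 (orange squares), by the number of distal sites in their chain, from single sites to chains of 6 or more. The background reaches 9.42 and 9.88 tags in chains of 6 or more while the fold falls to 5.69 and 5.99.

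By the median chain the libraries gave similar heights, while single chains and sites differed more. Only sites with a peak in both libraries could enter a chain. Summed over the sites of a chain, tags in replicate 2 were 0.606 to 1.75 times those in replicate 1, with a median of 1.08, and over all other distal sites the ratio was 1.01. The chain between H6pd and Gpr157 was at the upper end, with 341 tags in replicate 1 and 596 in replicate 2. The chain near Bdh1 had 466 and 713. The chain in Slc39a11 had 297 and 457 with a shared replicate 2 peak counted for both of its sites, a ratio of 1.54, and 274 and 370 with it counted once, a ratio of 1.35, against 1.37 at Eya2. At the lower end stood the chain between Aff3, which encodes a subunit of a transcription elongation complex, and Lonrf2, with 327 and 198. The chain between Plxnc1 and Cradd had 341 and 266, and that beside Mir9-2 had 563 and 482, a ratio of 0.856. With a shared replicate 2 peak counted once, the chain between Gpx6 and Olfr1367 stood lower than that, with 377 and 318, a ratio of 0.844. In 3 chains, at Crlf2, at Eya2 and between Ndufb4 and Fstl1, all sites were higher in replicate 2, and in no chain were all lower. The median absolute log2 ratio between libraries was 0.29 at chain sites and 0.35 at other distal sites.

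**Figure D5:**
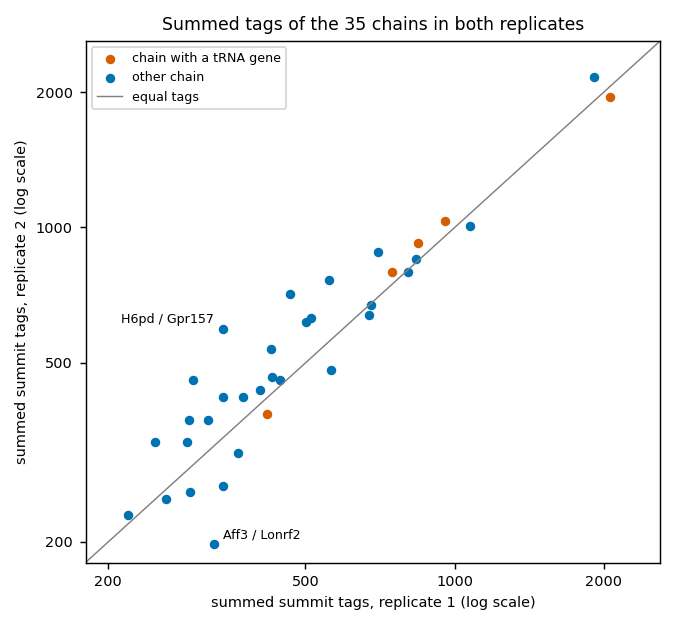
Summed summit tags of each of the 35 chains in replicate 1 and replicate 2, on log scales; orange points are the 5 chains with tRNA genes and the line marks equal tags. The Gata4 chain lies at 262 and 249 tags and the Crlf2 chain at 1912 and 2159, and the named points, H6pd / Gpr157 and Aff3 / Lonrf2, are those farthest from the line.

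At the limits of the rule, the 97 chains of 5 sites, just outside it, had medians of 52 tags in replicate 1 and 55 in replicate 2, and the 21 chains of 6 had 60 and 66. Of the 201 gaps inside chains, with a median of 2043 bp, 18 were over 4500 bp. Of the 70 distances from a chain to the next distal site, 6 were under 6000 bp, the shortest being 5302 bp. In 7 chains some replicate 1 peaks shared a replicate 2 partner, so that the 236 sites rested on 228 replicate 2 peaks. Chain spans also held 4 peaks seen in replicate 1 alone and 9 seen in replicate 2 alone, in 12 of the chains.

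The name distal held for protein-coding genes and less for others. Of the 236 sites, 64 (27.1%, 95% Wilson interval 21.8 to 33.1) lay within 1000 bp of the end of a RefSeq gene of some kind, against 7.77% of all distal sites, among them the tRNA sites. There were 171 sites on no tRNA gene and no start window that also lay more than 1000 bp from any RefSeq gene end.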

How the data were processed

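ATAC-seq peaks of 2 libraries of Stag3 KO GSCs, replicates 1 and 2 of 1 group, were used. Per the submitters' processing notes, the tools included MACS2 2.1.1, Bowtie2 2.3.4.1, bedtools 2.29.2, Picard 2.18.23 and Trim Galore, with mm10 (GRCm38) as the build. Settings, depth and the handling of reads that match several places are not given in the sources used here. The deposited peak list of each library gives each peak the authors' fold enrichment (a linear ratio), the −log10 of its p-value and q-value, an integer score that was not used, and the summit. From fold and p-value, the tags at the summit and the local background were solved for, with a unique solution for 100% of peaks in both lists, where −log10 p could miss by 0.0001 and by a relative error of 1e-05. The solver was tested on simulated data.

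Genes came from RefSeq on GRCm38.p6 (21887 protein-coding genes), and coordinates count from 1. For each replicate 1 peak, the partner was the replicate 2 peak of largest overlap (1 bp or more), the pair made 1 shared site, and replicate 1 peaks with the same partner stayed separate sites. Chains were built on replicate 1 summits. Chains, gene lists and comparisons were chosen with earlier results of these data known. The peaks of both libraries chose the chains, so their values are descriptions, with no test. Genes were to be named for chains with most sites, longest, densest, with highest or lowest tags, farthest from genes, with extreme replicate ratios, beside several chains or beside a listed gene. Genes of 8 other chains were named after their values were seen, and 2 of the 35 chains are counted but not reported by name here. The symbols Plzf, Cripto and Dnmt3c matched no gene. Alternatives changed the summit, gap, chain length, distal distance, gene types, overlap, q-value, partners, gene-end sites and replicates used. Python 3.11.15, pandas 2.3.3, numpy 2.4.6 and scipy 1.17.1 were used.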

Additional observations from a re-analysis of the deposited data

How the results depend on the processing

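The number of chains and what they span depended on the definition. Both ratios of chain sites to other distal sites stayed above 1 under all 14 alternatives. Every alternative still chose chain sites by close spacing, so the ratios were not tested apart from that choice. In each list that follows, the values are chains, sites, median span, share of chains overlapping a protein-coding gene, tag ratio and background ratio, against 35, 236, 12237 bp, 40%, 1.48 and 3.33. A gap of 2500 bp gave 2 chains, 12 sites, 6982.5 bp, 0%, 2.3 and 6.16. A gap of 10000 bp gave 570 chains, 4170 sites, 26094.5 bp, 63.3%, 1.23 and 1.92. Chains of 5 or more numbered 132, with 721 sites, 9690.5 bp, 43.9%, 1.29 and 2.59. Chains of 8 or more numbered 7, with 61 sites, 17097 bp, 14.3%, 1.87 and 4.94. Ends of every gene type left 19 chains, 122 sites, 13126 bp, 52.6%, 1.30 and 2.57. With gene-end sites kept in there were 112 chains, 749 sites and a share of 83.0%. The background ratio was 4.04 for sites beyond 2500 bp, 3.67 at a −log10 q of at least 5 and 3.71 with each partner counted once. Leaving out the 5 tRNA chains, an alternative added after the data were seen, gave 12782 bp and a background ratio of 2.64. On the peaks of 1 library alone, without replicate 1 or without replicate 2, there were 94 to 113 chains, 616 to 744 sites, spans of 11304.5 to 12067 bp and background ratios of 2.85 to 3.00. Of the 35 chains, 32 were found again without replicate 1 and all 35 without replicate 2. The second was fixed in advance because the chains were built on replicate 1 summits. The first was largely fixed too, because each chain site overlaps a replicate 2 peak by the rule. The larger counts with single libraries, a lower minimum or a wider gap follow from admitting more peaks, shorter chains or wider spacing, and for the other changes the cause was not tested. No paired analysis was possible because there was 1 group. Sequencing depth was not known, so weak sites could have been missed in either library.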
